A study of Homo sapiens with 6 samples.

Results

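The hairpin ETV1-sh1, which left part of its target RNA in place, was compared with a scrambled hairpin in 2 human melanoma cell lines. The members are the 4 libraries of these 2 hairpins, of 6 in the series: A375 and Colo800, each with 1 ETV1-sh1 and 1 scrambled library. They were chosen by their labels. A375 and Colo800 are established lines grown from melanomas, and the paired replicates of this comparison are the lines, 2 libraries against 2. Each line was infected with virus carrying a short hairpin RNA, and RNA was harvested 4 days later, per the series' design. The remaining 2 libraries carried a second hairpin against the same gene, ETV1-sh2, and are set beside the 4 where they help. The design speaks of duplicate infections, but in the table each line and hairpin has 1 column, and the sources used here do not say if a column pools duplicates. There was thus no replicate within a line, and p-values measure only the spread between these libraries.

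ETV1 is a transcription factor of the ETS family and, with ETV4 and ETV5, forms its PEA3 group. These factors bind DNA around a GGAA core and are transcribed in response to signalling through the RAF, MEK and ERK kinases, which is active in most melanomas. A short hairpin RNA is cut in the cell to a guide strand, which an Argonaute protein holds and which directs cutting of an RNA that pairs along the whole guide. A guide can also act as a microRNA does, through pairing of a short stretch near its 5′ end, the seed, with the 3′ untranslated region (3′ UTR) of other RNAs. RNAs that carry such a match then fall, whether or not they have anything to do with the intended target, and this is the best known off-target effect of hairpins. A second hairpin with another sequence usually has another seed.

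The labels conflict on drugs. The treatment field gives DMSO for the ETV1-sh1 samples, 1 uM vemurafenib (a BRAF inhibitor) for the scrambled samples and 5 nM trametinib (a MEK inhibitor) for the ETV1-sh2 samples, and a protocol text has cells receive siRNA over 48 hours and then drug over 8 hours. The design names no drug. If the treatment field were right, an effect of the hairpin and an effect of the drug in the scrambled libraries cannot be told apart. The same would hold for trametinib wherever the ETV1-sh2 libraries are compared with the others.

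Values are FPKM, the fragments per kilobase of transcript scaled to library size, and they carry no absolute depth. Compared with the A375 scrambled library, the commonest ratio between low values gave a relative depth of 1.43 for A375 ETV1-sh1, 0.801 for Colo800 scrambled and 0.859 for Colo800 ETV1-sh1. In that order, 10.4%, 8.59% and 9.44% of the low-valued genes lay at that ratio, so these depths are rough. The 4 libraries held 10418 to 10871 genes with an FPKM of at least 1. SOX10, a factor of the melanocyte lineage, stood at 353 to 712 FPKM in the 4 libraries. The pigment genes TYR and DCT were under 0.1 FPKM in both A375 libraries and at 34.4 to 125 in those of Colo800, and MLANA did not exceed 1.85 in any. Of the marker lists of other cells, 10 leukocyte genes summed to 101 to 140 FPKM in the 4 libraries, 79.2 to 139 of it CD68, a lysosomal protein, while PTPRC was at 0.121 or less. The 9 endothelial genes summed to 94.03 to 118, most of it ENG (68.8 to 96.7), with CDH5 at 0.0225 or less. The 10 keratinocyte genes summed to 20.9 to 46.5, in Colo800 mostly DSP, a desmosome protein that was called higher with ETV1-sh1, with TP63 at 0.0496 or less. Summed FPKM of the 10 fibroblast markers was 16.7 and 62.8 in the scrambled libraries of A375 and Colo800 and 19.3 and 54.5 with ETV1-sh1, with 1 marker at 0 in each A375 library. In bulk RNA, a change in the share of a kind of cell and a change in RNA per cell cannot be told apart.

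ETV1 (ENSG00000006468) stood at 82.8 FPKM in scrambled A375 cells and 34.6 with ETV1-sh1, and at 180.3 and 54.6 in Colo800. Both ETV1-sh1 values lay below both scrambled values, and 41.8% and 30.3% of the scrambled level was left. With ETV1-sh2, 4.18% and 5.43% was left. The fitted change with ETV1-sh1 was -1.47 on the log2(FPKM + 1) scale (SE 0.19, limma adjusted p = 0.00303), and its level was above that of ETV1-sh2 by 2.68 (adjusted p = 0.0111).

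The 2 relatives of ETV1 parted. ETV5, an ETS factor that ERK signalling induces, was at 70.3 FPKM in scrambled A375 cells and 24.5 with ETV1-sh1, and at 185.7 and 60.7 in Colo800. It fell by 1.54 (SE 0.18, adjusted p = 0.002), so 34.9% and 32.7% was left, about as much as of ETV1. With ETV1-sh2, which left less ETV1, 79.3% and 50.3% of ETV5 was left, and ETV5 with ETV1-sh1 minus ETV1-sh2 was -0.88 (adjusted p = 0.0591). ETV4 went in A375 from 84.7 to 113.7 FPKM and in Colo800 from 63.2 to 74.5, a change of 0.33 that did not pass the test (adjusted p = 0.312). Among 17 ETS factors tested, 3 fell and 0 rose, beside 4.28% lower and 2.66% higher among all genes tested. The 3 were ETV1, ETV5 and ELF1, an ETS activator at 20.6 to 9.10 FPKM in A375 and 46.2 to 14.8 in Colo800 (limma adjusted p = 0.00691).

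**Figure D1:**
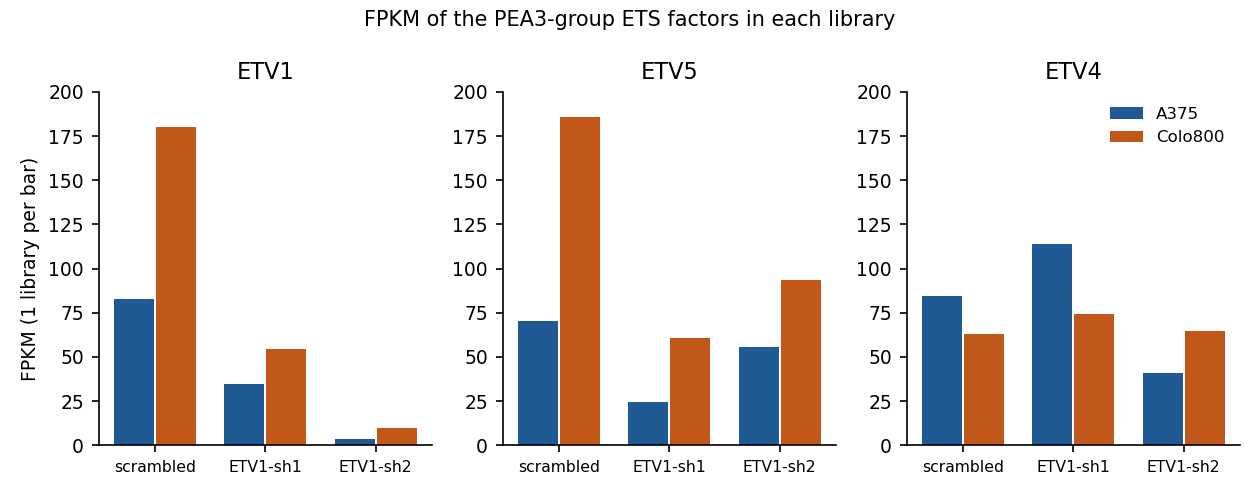
FPKM (vertical axis) of ETV1, ETV5 and ETV4 with the scrambled, ETV1-sh1 and ETV1-sh2 hairpins, 1 library per bar and no error bar, blue for A375 and orange for Colo800. ETV1 steps down from scrambled (82.8 and 180.3) through ETV1-sh1 (34.6 and 54.6) to ETV1-sh2, while ETV5 is lowest with ETV1-sh1.

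Across the genome 11018 genes averaged at least 1 FPKM across the 4 libraries and were tested, with the line as a block and 1 residual degree of freedom. limma shares variance across genes, and the median total was 9.427 degrees of freedom. Each p-value thus rests mostly on the spread of other genes. At a Benjamini-Hochberg adjusted p under 0.05, 472 genes (4.28%) were lower with ETV1-sh1 and 293 (2.66%) were higher. Lower genes made up 61.7% of the calls, against 49.9% of all genes tested that had a negative change. When the 8065 genes without the 3′ UTR letters CTAAAC, described further on, were fitted alone, 43.1% of the calls were lower (109 lower, 144 higher). The letters were picked for the low changes of their genes in these same libraries. A smaller lower share without those genes therefore follows from the choice and is no separate result. Among the calls, 294 lower and 161 higher genes changed at least 2-fold, and the smallest called change was 0.70. Without any test, 175 genes (1.59%) were at least 2-fold lower in both lines and 82 (0.744%) at least 2-fold higher. All of these were also among the calls. In 7 genes the lines moved at least 2-fold in opposite directions. All calls had both lines moving the same way. In a fit to the 6 libraries, leaving out the A375 or the Colo800 ETV1-sh1 library left 0 calls, the A375 scrambled library 2 (TMEM50A and GRAMD1B) and the Colo800 scrambled library 2 (TIMP3 and TMEM50A). Each of these fits leaves a group with 1 library. That fit with all 6 libraries gave 167 lower and 86 higher genes, and with no filter on low values the 4-library fit gave 0 of either, with a smallest adjusted p of 0.179 and with 1180 lower and 1121 higher at an unadjusted p under 0.05.

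**Figure D2:**
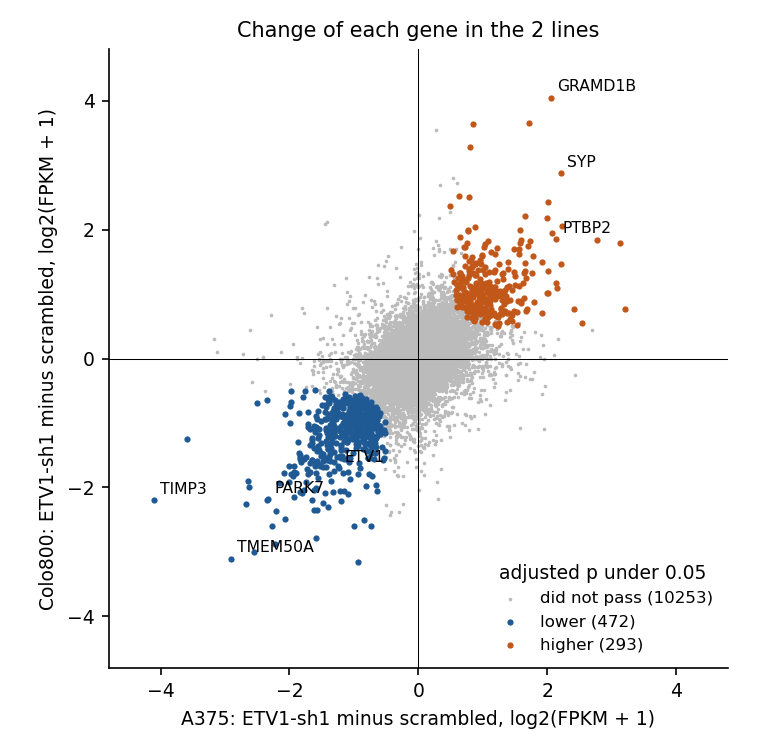
Difference of ETV1-sh1 minus scrambled on log2(FPKM + 1) in A375 (horizontal axis) and Colo800 (vertical axis), 1 point per gene tested, blue for the 472 lower and orange for the 293 higher genes. The called genes lie in the 2 corners where both lines moved alike, with TIMP3 and TMEM50A lowest and GRAMD1B highest.

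Many of the lower genes shared a short sequence in their 3′ UTRs. Of all 13886 stretches of 7 bases found in at least 200 of the 10805 longest 3′ UTRs (GENCODE release 29), genes holding TCTAAAC had the lowest median change (-0.22, 1183 genes), and genes holding CTAAACA the next lowest (-0.21, 1279 genes). The 2 overlap as the 8 bases TCTAAACA. Each line gave these 2 as the lowest pair on its own, and so did the difference between ETV1-sh1 and ETV1-sh2. TCTAAAC was in 34.7% of the 3′ UTRs of lower genes, 5.88% of higher genes and 10.9% of all genes tested, and CTAAACA in 36.6%, 4.15% and 11.8%. The search was run on the strand of the RNA, after earlier results of these data were known, and is given as a description with no test.

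The change was graded with the length of the match. The 495 genes with all 8 bases had a median change of -0.29, and 78 of them (15.8%) fell and 7 (1.41%) rose, against the 4.28% and 2.66% of all genes tested. With 7 of the bases the median was -0.17, for 688 genes with the first 7 and for 660 with the last 7, and 12.1% and 11.7% of them fell. With the 6 bases CTAAAC alone it was -0.04 (897 genes, 56 lower, 19 higher), and with none 0.04 (8065 genes, 170 lower, 249 higher). A site of 7 or 8 bases was thus in 238 of 464 lower genes with a 3′ UTR (51.3%) and in 21 of 289 higher genes (7.27%). Over all genes with a 3′ UTR the share was 17.1%. The letters were picked by the changes in these same libraries. The medians and shares with ETV1-sh1 therefore follow in part from that choice and are a description with no test. For the 8-base genes the median with ETV1-sh1 was -0.22 in A375 and -0.35 in Colo800. With ETV1-sh2, set against the same scrambled libraries, it was -0.02 and -0.0042.

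Length of the 3′ UTR moved with the sites, with a median of 3640 bases in the 8-base genes and 1032 in those with none, so genes of like length were also compared. Between 1000 and 2000 bases, the median change was -0.27 with a 7- or 8-base site (350 genes, 60 lower, 0 higher) and 0.05 with none (2037 genes, 41 lower, 76 higher). Between 2000 and 4000 bases it was -0.22 and 0.07, and between 4000 and 8000 bases -0.13 and 0.09. These bands use the same letters and libraries, so they are a description too. The sources used here do not give the sequence of the hairpin, so whether these letters pair with its guide was not tested. Among 2370 mature human microRNAs of the RefSeq table (GRCh38.p14), 0 had bases 2 to 7 that pair with CTAAAC. Whether any small RNA acted at these letters was not tested.

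The sites of a few genes that the results turn on are shown with 7 bases on either side, 5′ to 3′ on the strand of the RNA, as DNA letters of GRCh38 with the matched site in capitals. The authors' table was made on hg19, and these coordinates were not carried over to it. ETV1 itself holds TCTAAACA at 2 places in its longest 3′ UTR of 4638 bases, starting at bases 199 and 1713 (chr7:13895653-13895674 and chr7:13894139-13894160, minus strand). TMEM50A (chr1:25360786-25360806, plus strand), ETV5 (chr3:186046815-186046835, minus strand) and PTBP1 (chr19:811569-811589, plus strand) hold the first 7 bases. PARK7 (chr1:7985113-7985134, plus), PMP22 (chr17:15230187-15230208, minus), C12orf75 (chr12:105370698-105370719, plus) and MBNL2 (chr13:97391616-97391637, plus) hold all 8.
ETV1, first site: ggagtaaTCTAAACAtttattc
ETV1, second site: aaaaaatTCTAAACAcaaagtc
PARK7: tgttcgcTCTAAACAaaacagt
PMP22: ctaatcaTCTAAACAactcact
C12orf75: aggaaatTCTAAACAgtcaccc
MBNL2: aagggttTCTAAACAtagtttc
TMEM50A: gccatttTCTAAACttatttc
ETV5: gactcttTCTAAACcatattt
PTBP1: agtgtaaTCTAAACttccttg
A site did not go with a call in every gene that holds one: PGK1, a glycolytic enzyme with an 8-base site, went in A375 from 1736 to 1415 FPKM and in Colo800 from 1876 to 1469 (adjusted p = 0.372).

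**Figure D3:**
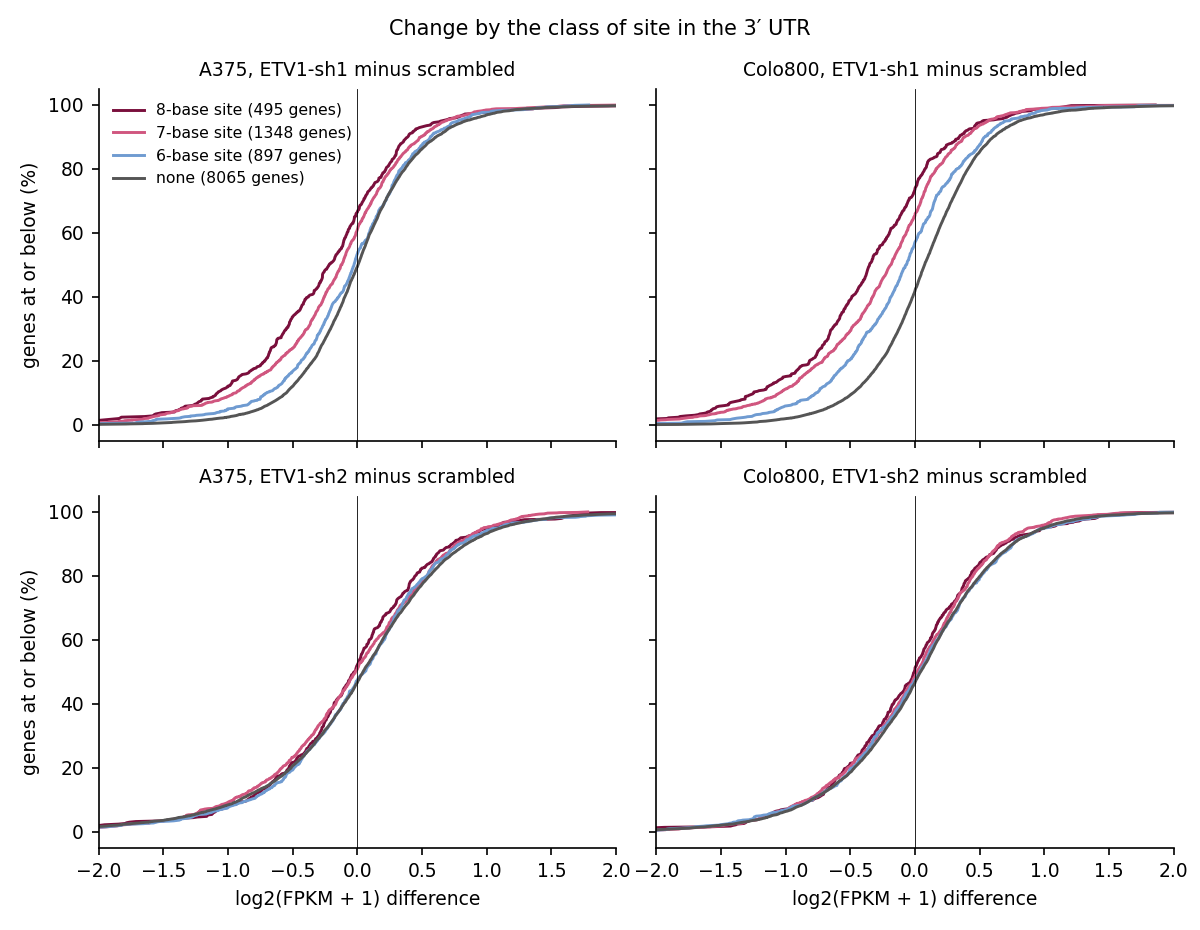
Cumulative share of genes (vertical axis, percent) at or below each log2(FPKM + 1) difference from scrambled (horizontal axis), for A375 and Colo800 and for ETV1-sh1 (top) and ETV1-sh2 (bottom), by the longest site in the 3′ UTR. With ETV1-sh1 the 8-base curve (495 genes) lies furthest left in both lines and the curve of genes with none furthest right, while with ETV1-sh2 the curves lie close together.

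Most of the largest decreases were in genes with such a site: 23 of the 30 lower genes of largest change held a 7- or 8-base site, 5 the 6 bases only and 2 none. The letters were picked for low changes in these same libraries, so these counts follow in part from the choice and are a description. Over all genes with a 3′ UTR, 17.1% held a 7- or 8-base site and 74.6% none of these letters. The lowest of all was TIMP3, an inhibitor of metalloproteinases with an 8-base site, which went from 424 to 23.8 FPKM in A375 and in Colo800 from 844 to 183 (change -3.15, SE 0.36, adjusted p = 0.00194). With ETV1-sh2 it was also low, at 21.3 and 219 FPKM, and the difference between the hairpins did not pass the test (-0.05, adjusted p = 0.895). TMEM50A (ENSG00000183726), a small membrane protein, was at 94.7 FPKM in scrambled A375 cells and 11.8 with ETV1-sh1, and at 119.9 and 13.1 in Colo800. It fell by 2.90 in A375 and by 3.10 in Colo800 on the log2 scale (SE of their mean 0.18, adjusted p = 0.000357), the smallest adjusted p of the comparison, and with ETV1-sh2 it was at 118.8 and 139.1. PARK7 (also DJ-1), a protein that protects cells against oxidation, went from 311 to 61.0 and from 350 to 76.2 FPKM (change -2.26, adjusted p = 0.000735), and was at 336 and 364 with ETV1-sh2. In both genes the ETV1-sh1 libraries lay far below the other 4, which lay close to each other.

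PMP22, a myelin membrane protein, fell in A375 from 103 to 21.3 FPKM and in Colo800 from 250.3 to 33.2 (change -2.55, adjusted p = 0.000829). LOXL4, an enzyme that cross-links collagen, fell from 128 to 20.9 and from 378 to 46.0 (change -2.78, adjusted p = 0.000454). Both were also below scrambled with ETV1-sh2, at 48.0 and 166 FPKM for PMP22 and 59.0 and 197 for LOXL4, and lower still with ETV1-sh1 (difference -1.71 and -1.76, adjusted p = 0.0243 and 0.014). C12orf75 fell from 24.96 to 4.40 and from 20.7 to 2.60 FPKM, ZCCHC9 from 43.5 to 8.65 and from 50.9 to 9.09, and LHFPL2 from 27.8 to 5.84 and from 57.2 to 9.37, with adjusted p from 0.000899 to 0.00103. Those 3 hold a 7- or 8-base site. The sulfate transporter SLC26A2 (change -2.42) and the LIM-domain scaffold FHL2 (-2.05) also hold one and fell in both lines. DBI, which binds acyl-CoA esters, FLT1, a VEGF receptor, and FLRT3, a cell-adhesion protein, hold the 6 bases only and fell by 2.47, 2.31 and 2.18. SERPINE2, a secreted inhibitor of thrombin and of plasminogen activators and one of the most abundant RNAs here, holds none, and fell in A375 from 6551 to 1046 FPKM and in Colo800 from 6751 to 1809 (change -2.27, adjusted p = 0.00148).

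Of the 30 largest increases 3 were in genes with 7 or 8 of the bases and 27 in genes with none, beside the 17.1% and 74.6% of all genes. These counts too are a description, since the letters were picked from these same libraries. GRAMD1B, a carrier of cholesterol between membranes, holds a 7-base site. It went in A375 from 52.2 to 221 FPKM and in Colo800 from 1.15 to 34.5 (change 3.05, SE 0.37, limma adjusted p = 0.00251). Its Colo800 ETV1-sh1 value lay below the A375 scrambled value, so the 2 groups overlapped, but both lines rose. SH2D2A, an adaptor protein of T cells, went from 18.9 to 64.6 and from 2.85 to 47.7 FPKM (change 2.69, adjusted p = 0.00378). SERPIND1, the thrombin inhibitor heparin cofactor II, went from 5.38 to 42.4 and from 12.9 to 48.6 (change 2.30, adjusted p = 0.00145), with no overlap. PRR9 rose from 0.170 to 9.20 and from 2.29 to 10.4 FPKM, and ESM1, a proteoglycan of endothelium, from 5.77 to 26.4 and from 0.304 to 6.01.
PAEP, a secreted lipocalin, and PTPRN, a protein of secretory granules, rose with adjusted p of 0.0305 and 0.0297, each mostly in Colo800: 1.59 to 31.2 FPKM for PAEP and 3.48 to 42.6 for PTPRN, against 1.78 to 4.02 and 3.32 to 6.52 in A375. CEP97, a centriole protein with an 8-base site, went in A375 from 8.84 to 89.6 and in Colo800 from 158.8 to 271 (change 1.98, limma adjusted p = 0.0266). In the fit to the 6 libraries without the A375 scrambled library, its fitted change was -0.41. That fit takes the difference between lines also from ETV1-sh2, where CEP97 was at 117 FPKM in A375 and 12.8 in Colo800. The value is thus no fall within Colo800, where CEP97 rose. DYNLRB1, a dynein light chain, MED19, a Mediator subunit, FURIN, a protease that matures secreted proteins, and SNX15, a sorting nexin, rose by 2.14, 2.02, 1.93 and 1.84. For these 4 no difference between ETV1-sh1 and ETV1-sh2 passed the test (differences -0.35, -0.19, -0.05 and -0.38, adjusted p from 0.287 to 0.897).

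Set against ETV1-sh2 directly, in 11159 genes, 499 genes (4.47%) were lower with ETV1-sh1 and 546 (4.89%) were higher. This comparison shares its ETV1-sh1 libraries with the one above. Without the A375 or the Colo800 ETV1-sh1 library 0 genes were called, while without the A375 ETV1-sh2 library 563 were lower and 612 higher, and without the Colo800 one 882 and 901. Among genes called against both and changed at least 2-fold against scrambled, the 6 per direction with the largest difference between hairpins are described here. Below both other hairpins were TMEM50A (difference from ETV1-sh2 of -3.27, adjusted p = 0.00833) and PARK7 (-2.34, adjusted p = 0.0111), whose values are given above. NDN, a growth suppressor of neurons, went in A375 from 5.45 to 1.11 FPKM and in Colo800 from 5.53 to 2.09 with ETV1-sh1, and was at 16.8 and 19.0 with ETV1-sh2, so the 2 hairpins lay on either side of scrambled (difference -2.89, adjusted p = 0.0111). ITGA2, the integrin subunit that binds collagen, likewise went from 17.3 to 8.75 and from 12.8 to 3.23 FPKM and was at 33.3 and 29.4 with ETV1-sh2 (difference -2.33, adjusted p = 0.0124). LIMCH1, an activator of myosin, went from 20.6 to 6.02 and from 42.4 to 7.51, with 18.3 and 99.2 for ETV1-sh2. Of these 6, only QPCT, a glutaminyl cyclase (10.8 to 2.92 and 62.4 to 17.6, with 19.1 and 85.7 for ETV1-sh2), holds no site, and the other 5 hold one of 7 or 8 bases. Over all genes with a 3′ UTR, 17.1% held a 7- or 8-base site and 74.6% none of these letters. The letters were picked from these same libraries, so the 5 are a description.

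Above both other hairpins were ESM1 (difference 2.84, limma adjusted p = 0.0111), PRR9 (2.81), SERPIND1 (2.54), VAT1L, VGF and STMN3. All 6 were without a site, as were 74.6% of all genes with a 3′ UTR. VGF, the precursor of neuropeptides, went in A375 from 330.4 to 464 FPKM and in Colo800 from 305 to 1575, and was at 107 and 191 with ETV1-sh2 (difference 2.57, adjusted p = 0.0111). STMN3, a microtubule regulator of neurons, went from 1.07 to 7.30 and from 10.6 to 28.6, and was at 0.450 and 4.28 with ETV1-sh2. VAT1L went from 38.1 to 69.7 and from 0.0264 to 1.57, against 4.045 with ETV1-sh2 in A375 and a listed value of 0 in Colo800.

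**Figure D4:**
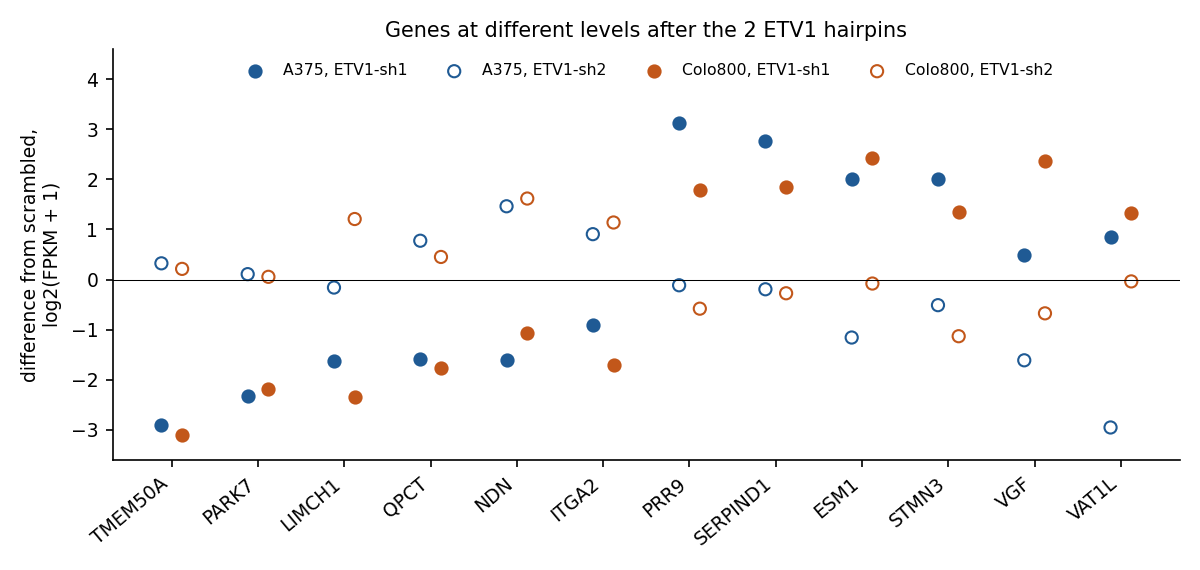
Difference from scrambled on log2(FPKM + 1) (vertical axis) for 12 genes at different levels after the 2 ETV1 hairpins, filled circles for ETV1-sh1 and open circles for ETV1-sh2, 1 library against 1 in A375 (blue) and Colo800 (orange). All filled circles of the 6 genes on the left lie below 0 and all those of the 6 on the right above it, while TMEM50A and PARK7 stay near 0 with ETV1-sh2.

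Of 26 genes of neurons and their synapses tested, 9 rose and 0 fell, beside the 2.66% and 4.28% of all genes tested, with a list median of 0.51 against 0.0008 over all genes tested (0.66 in A375 and 0.36 in Colo800). With ETV1-sh2 the list medians were 0.0004 and 0.19. SYP, a protein of synaptic vesicles, went in A375 from 0.833 to 7.51 FPKM and in Colo800 from 2.51 to 24.9 (change 2.55, SE 0.25, adjusted p = 0.00111). With ETV1-sh2 it was at 3.36 and 3.53, below ETV1-sh1 by the test (difference 1.74, adjusted p = 0.0392). CALB2, the calcium-binding calretinin, went from 26.3 to 107 and from 0.649 to 6.45 FPKM (change 2.08, adjusted p = 0.00111), a rise in each line although the lines' levels overlapped.
The remaining members that rose are named here after their values were seen. NEFL, a neurofilament subunit, rose from 45.9 to 155 and from 4.22 to 17.5 FPKM (change 1.78, adjusted p = 0.00142), and the granule proteins SCG5 and CHGB by 1.57 and 1.29. SNAP25, of the vesicle fusion machinery, and the synaptotagmin SYT11 rose by 0.97 and 1.09. STMN3 and PTBP2 complete the 9. Of these 9, NEFL, SCG5, STMN3, CALB2, PTBP2 and SYP were also above their level with ETV1-sh2 (adjusted p from 0.0111 to 0.0392), and SYT11, SNAP25 and CHGB did not pass that test.

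The pair PTBP1 and PTBP2 moved in opposite directions. PTBP1 is the splicing repressor of most cells outside the nervous system and PTBP2 its neuronal counterpart, whose RNA PTBP1 is known to hold down by exon skipping. PTBP1 was at 118 FPKM in scrambled A375 cells and 63.5 with ETV1-sh1, and at 149 and 79.5 in Colo800, so 53.7% and 53.5% was left (change -0.89, SE 0.17, adjusted p = 0.0177). PTBP2 was at 10.0 and 47.6 in A375 and at 15.7 and 59.7 in Colo800, 4.74-fold and 3.79-fold higher (SE 0.19, adjusted p = 0.00111). With ETV1-sh2, PTBP1 was at 84.5 and 111 FPKM and PTBP2 at 9.91 and 30.9. PTBP1 holds a 7-base site, shown above, and PTBP2 rose although its longest 3′ UTR holds all 8 bases. Among 25 genes of splicing and poly(A) binding, 4 fell and 1 rose, with a median of -0.18. Among all genes tested 4.28% were lower and 2.66% higher. The 4 that fell are among 8 of the 25 that hold a 7- or 8-base site: PTBP1, the muscleblind splicing factors MBNL1 and MBNL2, and PABPC1, which binds poly(A) tails. MBNL2 went from 68.4 to 22.4 and from 134.8 to 25.7 FPKM (change -1.96, adjusted p = 0.00184).

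Of 19 genes listed for the proteins with which a guide acts, only 10 were found by symbol, and these were tested. Among the 10, 1 fell, beside 4.28% lower among all genes tested. The 1 that fell was TNRC6A, the partner through which Argonaute silences RNAs. In A375 it went from 44.4 to 16.5 FPKM and in Colo800 from 33.8 to 11.5 (change -1.43, limma adjusted p = 0.00323). It holds a 7-base site and was at 22.3 and 21.0 with ETV1-sh2. DICER1, which cuts hairpins, was at 8.41 and 10.5 FPKM in A375 and 14.2 and 12.7 in Colo800 (adjusted p = 0.892). Of 15 sensors of double-stranded RNA 0 passed the limma test (median 0.26). Beside 2.66% higher among all genes tested, 2 of 28 interferon-response genes rose, IFI44 (9.56 to 41.3 and 11.9 to 25.1 FPKM) and IRF9 (10.8 to 23.1 and 16.25 to 25.04). The interferon list's median was 0.44 in A375 and 0.08 in Colo800 with ETV1-sh1, and 1.49 and 0.59 with ETV1-sh2.

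Of 13 genes of myelin and Schwann cells 4 fell and 0 rose (median -0.68), beside 4.28% lower and 2.66% higher among all genes tested. Among the 4 were PMP22, S100B and ERBB3. S100B, a calcium-binding protein of neural crest derivatives used to mark melanoma, went in A375 from 118 to 39.4 FPKM and in Colo800 from 305 to 83.9 (change -1.70, SE 0.18, adjusted p = 0.00145). ERBB3, the neuregulin receptor, went from 156 to 38.3 and from 113 to 67.6 (change -1.37, adjusted p = 0.0181). For S100B and ERBB3 the difference from ETV1-sh2 did not pass the test (adjusted p = 0.118 and 0.822). Both are also on the melanocyte list, where 5 of 20 fell and 0 rose, and 5 of 20 were higher in both lines (median -0.41, but -0.10 in A375 alone). MYO5A and RAB38, which move pigment granules, were also among those that fell. MITF, the master factor of the lineage, went from 12.6 to 8.61 and from 116 to 91.5 FPKM and did not pass (adjusted p = 0.216).

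Of 30 genes of mitosis 9 fell and 0 rose, beside 4.28% lower among all genes tested, with a median of -0.60 (-0.88 in A375 and -0.39 in Colo800) and with 24 of 30 lower in both lines. HMMR, a spindle protein, went in A375 from 16.7 to 2.48 FPKM and in Colo800 from 31.0 to 5.97 (change -2.27, adjusted p = 0.00103). TOP2A, the topoisomerase of dividing cells, went from 25.5 to 6.48 and from 56.0 to 17.7 (change -1.72), and the cyclin CCNB2 from 15.9 to 3.71 and from 52.3 to 17.0 (change -1.70). HMMR, TOP2A, CCNB2 and the checkpoint kinase BUB1B hold a 7- or 8-base site, and the remaining 5 (BUB1, MAD2L1, KIF23, TPX2 and NUSAP1, which fell by 0.85 to 1.07) do not. The proliferation marker MKI67 went from 13.6 to 9.54 and from 49.3 to 33.3 FPKM and did not pass (adjusted p = 0.148). BUB1B, the 5 without a site and MKI67 are named after their values were seen.
Of 31 genes of DNA replication 4 fell and 0 rose, beside 4.28% lower and 2.66% higher among all genes tested. No 7- or 8-base site was found in the 4 (UHRF1 had no 3′ UTR to search): RRM2, a subunit of ribonucleotide reductase (137 to 37.0 and 544 to 220.3 FPKM), UHRF1, TYMS and MCM10. UHRF1, TYMS and MCM10 were higher with ETV1-sh1 than with ETV1-sh2, TYMS by 3.22 (adjusted p = 0.00833). With ETV1-sh2 the medians were -2.38 and -0.91 for the mitosis list and -1.06 and -1.25 for the replication list. Of the G1 regulators 2 of 20 fell, cyclin D1 (CCND1) and cyclin E2 (CCNE2), the latter from 4.73 to 0.537 and from 16.0 to 3.99 FPKM (change -1.83) with an 8-base site. The ribosome-assembly genes NIP7 and PNO1 fell, 2 of 27, not far from the 4.28% of all genes.

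Readouts of ERK signalling are given here because the labels name inhibitors of this pathway. What the scrambled cells received was not tested. DUSP6, a phosphatase that ERK induces, was at 201 FPKM in scrambled A375 cells and 166 with ETV1-sh1, and at 156 and 95.9 in Colo800 (change -0.49, adjusted p = 0.162). DUSP4, SPRY2, SPRY4, EGR1 and FOSL1, further early readouts, did not pass either (changes from -0.54 to 0.20, adjusted p from 0.103 to 0.898). These 6 were named after their values were seen and are not all the readouts. Other genes of ERK output did pass, 5 lower and 1 higher, and are given next.
Of the 28 genes of ERK output 5 fell and 1 rose (median -0.27), beside 4.28% lower and 2.66% higher among all genes tested. The 5 were ETV5, HMGA2, CCND1, SPRED1 and TFAP4, and DUSP5 rose, in A375 from 34.3 to 57.5 FPKM and in Colo800 from 36.7 to 74.7 (adjusted p = 0.024). CCND1 went from 411 to 207 and from 346 to 167 FPKM (change -1.01, adjusted p = 0.0109). Of 21 genes of the kinase cascade itself NRAS alone fell, from 26.9 to 14.6 and from 64.5 to 25.8 FPKM (adjusted p = 0.0146), and it holds a 7-base site; 1 of 21 is near the 4.28% of all genes tested.

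Of 21 genes of the unfolded protein response 5 fell and 0 rose (median -0.40), beside 4.28% lower and 2.66% higher among all genes tested. PDIA3, which forms disulfide bonds in new glycoproteins, went in A375 from 192 to 49.9 FPKM and in Colo800 from 882 to 199 (change -2.03, SE 0.18, adjusted p = 0.000991), and was at 173 and 611 with ETV1-sh2. DNAJB9 and the sensor ATF6 fell as well, and all 3 hold a 7-base site. The chaperone HSPA5 fell from 228 to 144 and from 485 to 289 without one, and SEL1L, of the degradation machinery, holds the 6 bases. Of 31 genes of the integrated stress response 6 fell and 2 rose (median -0.19), and 10 were higher in both lines. The cytokine GDF15 went from 27.5 to 11.3 and from 174.8 to 79.4 FPKM, and the factor ATF3 from 63.2 to 19.9 and from 31.4 to 14.8, while the kinase EIF2AK3 rose from 11.7 to 24.1 and from 50.5 to 141. None of the 6 that fell holds a site.
Of 29 genes of glycolysis and hypoxia 7 fell and 0 rose (median -0.26), beside 4.28% lower and 2.66% higher among all genes tested. The glucose transporter SLC2A1 went from 78.0 to 24.7 and from 127 to 30.3 FPKM (change -1.83, adjusted p = 0.00142) and was lower than with ETV1-sh2 (60.4 and 105 FPKM, adjusted p = 0.0175). PFKFB3, which raises glycolytic flux, and the hexokinase HK2 fell by 1.46 and 1.39. Of 35 genes of oxidative phosphorylation 2 fell, the succinate dehydrogenase subunits SDHD (11.9 to 2.398 and 12.1 to 3.145 FPKM) and SDHB (172 to 63.5 and 224 to 99.8), both with a 7-base site and against a list median of 0.10; 2 of 35 is near the 4.28% of all genes tested. In serine and one-carbon metabolism 4 of 17 fell, PSAT1, SLC1A4, MTHFD1 and TYMS. Of 23 redox genes 2 fell, PARK7 and HMOX1.

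**Figure D5:**
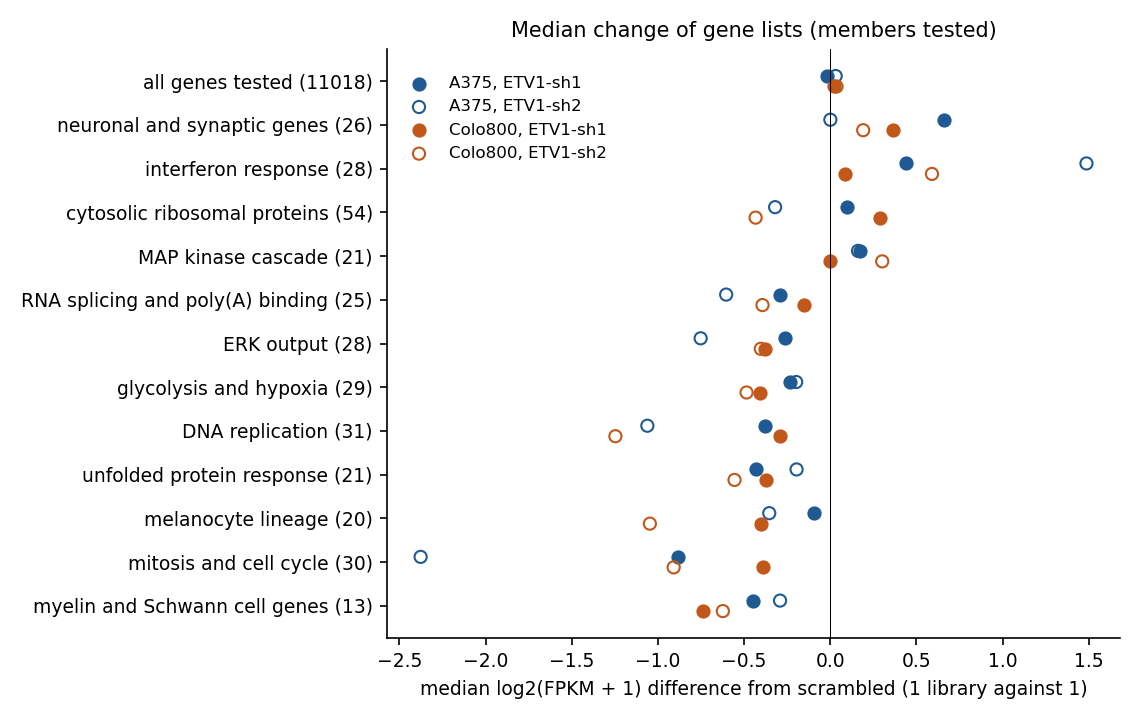
Median difference from scrambled on log2(FPKM + 1) (horizontal axis) of 12 gene lists and of all 11018 genes tested, with the number of members tested in parentheses, filled circles for ETV1-sh1 and open ones for ETV1-sh2, 1 library against 1 in A375 (blue) and Colo800 (orange). The neuronal list lies above 0 in both lines with ETV1-sh1 (0.66 and 0.36), and the mitosis list lies below it (-0.88 and -0.39).

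At the cell surface and in the matrix, 6 of 34 adhesion and matrix genes fell and 0 rose (median -0.05). Among all genes tested 4.28% were lower and 2.66% higher. Of the 34, 13 were lower in both lines and 12 higher in both. LAMC1, a laminin chain with a 7-base site, went in A375 from 826 to 256 FPKM and in Colo800 from 932 to 301 (change -1.66, adjusted p = 0.0016), and THBS1, thrombospondin 1, from 464 to 121 and from 1148 to 338 (change -1.85, adjusted p = 0.00111). Of 32 proteases and inhibitors 7 fell and 3 rose, and of 29 TGF-beta and YAP targets 6 fell and 1 rose. Of 14 lysyl oxidases and collagen-processing genes 2 fell, while 4 were lower in both lines and 5 higher in both. Of 24 genes of dedifferentiated melanoma 3 fell, NES, CYR61 and THBS1, and TWIST2 rose. Of 22 receptor tyrosine kinases FLT1 and ERBB3 fell and DDR1 rose, from 96.4 to 140.4 and from 98.3 to 314 FPKM.
The counts that follow are to be read beside the 4.28% lower and 2.66% higher of all genes tested. Several are near these shares, among them 1 of 30 Mediator subunits lower and 2 of 54 ribosomal proteins higher. Among 34 genes of membrane traffic the small GTPases RAB10 and RAB14 fell and 3 rose (SEC24D, SNX15, KDELR3). RAB10, with an 8-base site, went from 162 to 41.3 and from 277 to 77.5 FPKM (change -1.89, adjusted p = 0.00103) and was at 188 and 374 with ETV1-sh2. Of 26 lysosome and autophagy genes 2 fell (CTSK, GAA) and 2 rose (ULK1, WIPI1). Of 25 p53 targets 5 fell, 1 with a site, RRM2B, and the list median was -0.42 in A375 and 0.23 in Colo800. ICAM1 and CCL2 fell among 21 NF-kB and cytokine genes, TUBB6 and TPM3 among 26 tubulins, actins and regulators, MED1 among 30 Mediator subunits (MED24 and MED19 rose) and HMGA2 among 7 oncofetal genes. TAPBP and PSMB9 rose among 18 antigen-processing genes, DYNLRB1 and KIF1A among 22 motor genes, and 2 of 54 ribosomal proteins, RPL15 among them, with a median of 0.19. No limma call was made among 20 genes of cholesterol synthesis, 23 apoptosis regulators, 16 housekeeping genes, 13 mitochondrially encoded genes, 6 fibroblast, 2 leukocyte and 4 endothelial markers; DSP alone rose among 4 keratinocyte markers, from 3.93 to 6.45 and from 17.2 to 39.7 FPKM.

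Promoters were compared for the letters that ETS and AP-1 factors bind, in the 300 bases around the start (RefSeq, GRCh38.p14, 250 before and 50 after), on both strands. A promoter was matched for 9005 of the 11018 genes tested (81.7%) and for 388 of the 472 lower genes (82.2%). CCGGAAGT, an ETS motif, was in 9.54% of the promoters of lower genes, 9.03% of all genes tested and 4.44% of all 27305 promoters in the table. TGACTCA, the AP-1 motif, was in 1.55%, 3.05% and 4.92%. For the higher genes, of which 233 of 293 (79.5%) had a promoter, the shares are not reported here.

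Some genes moved in 1 line, without any test since each line has 1 library per hairpin. In A375 the matrix link protein HAPLN1 went from 133 to 14.3 FPKM, the factor TFAP2B from 32.1 to 4.03, HLA-DOA from 18.1 to 2.38 and the sphingosine phosphate receptor S1PR1 from 8.88 to 0.853. All 4 were at 0.1645 FPKM or less in both Colo800 libraries, so these differences are in genes that Colo800 hardly expressed. In Colo800 the myelin lipid carrier PMP2 went from 7.67 to 0.808 and the phospholipase PLA1A from 5.72 to 0.632, and both were at 0.214 or less in A375.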

How the data were processed

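For the deposited FPKM values the submitters' processing notes name STAR 2.4, Cufflinks 2.2.1, Cuffnorm and hg19. The sources used here do not give annotation, strand setting or filters, and overlapping or antisense genes and near-identical copies cannot be separated. The table has 17468 genes and 6 columns. Members and lists were chosen with earlier results of these data known. limma 3.58.1 (R 4.3.3; lmFit, eBayes with variance trend, two-sided) was fitted on log2(FPKM + 1), which understates changes of low genes, with the cell line as block, since the replicate pairs share a line. P-values were adjusted by Benjamini-Hochberg over all genes tested; code was tested on simulated data. An exact paired permutation of 2 pairs cannot go below p = 0.5. Named were ETV1, the 15 largest calls per direction, 3 members per list (44 lists) plus all calls where 6 or fewer, 6 per direction apart from ETV1-sh2, and up to 4 per line and direction; symbols starting LOC, LINC, MIR, SNOR or RNU and clone names were passed over, and others are named after their values were seen. Sites were searched in the longest annotated 3′ UTR (GENCODE 29, basic, GRCh38) of 10805 genes, a step added after the data were seen. Alternatives covered pseudocount, filter, trend, scaling, block, the 6-library fit and each library left out. A few genes that the naming rule picks are not reported here.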

Additional observations from a re-analysis of the deposited data

Results flagged for a closer look

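In 4 genes with an FPKM of at least 5 where they are higher, the lines moved at least 2-fold in opposite directions with ETV1-sh1, on log2(FPKM + 1). Each difference is 1 library against 1, and the difference between lines was not tested. GAL, the neuropeptide galanin, changed by -1.45 in A375 (8.59 to 2.51 FPKM) and by 2.09 in Colo800 (0.765 to 6.53). CTLA4, an inhibitory receptor of T cells, changed by -1.41 in A375 (6.55 to 1.84 FPKM) and by 2.12 in Colo800 (2.85 to 15.8). MAP3K4, a stress kinase, changed by -1.31 in A375 (23.8 to 8.999 FPKM) and by 1.15 in Colo800 (10.4 to 24.3). HYPK, a partner of the N-terminal acetyltransferase at the ribosome, changed by -1.12 in A375 (44.5 to 19.9 FPKM) and by 1.25 in Colo800 (10.7 to 26.8).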

How the results depend on the processing

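Against scrambled, a pseudocount of 5 gave 144 lower and 59 higher genes by limma, the fit to all 6 libraries 167 and 86, and no filter on low values 0 and 0 (unadjusted p under 0.05: 1180 and 1121). Without the replicate block, which pairs the libraries of a line, 0 and 0 passed (unadjusted: 162 and 69). Leaving out 1 library gave 0 to 2 lower and 0 to 1 higher; a group then holds 1 library, assumed to vary like the others. Genes without CTAAAC, fitted alone, gave 109 lower and 144 higher, a setting chosen after seeing the data. The genes left out were those picked for low changes, so fewer lower calls follow from that choice. Against ETV1-sh2, the same settings gave 0 and 0 without a filter (unadjusted: 1617 and 1427), 0 and 0 without the replicate block (unadjusted: 290 and 294), 750 lower with 6 libraries, 212 lower without CTAAAC, and 0 to 882 lower and 0 to 901 higher with 1 library left out. At least 2-fold in both lines were 167 higher genes at a pseudocount of 0.1, 94 lower and 34 higher at 5, 569 and 395 at a threshold of 1.5-fold, and 41 lower without CTAAAC. In the 6-library fit, which also draws on ETV1-sh2, the log2 change of CEP97 ran from -0.41 without the A375 scrambled library to 4.37 without the Colo800 one. No other named gene that had passed changed sign under any setting run. The median of 7- or 8-base genes was -0.14 in A375 alone and -0.23 in Colo800 alone. The unknown depth limits the precision of low values.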
